A study of Mus musculus with 12 samples.

Results

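Genes of oxidative phosphorylation were examined for regions bound by the bromodomain proteins BRD2 and BRD3 in Raw264.7 cells, a mouse macrophage line that can form osteoclasts. Members were the nuclear protein-coding genes whose symbols begin with Nduf, Uqcr, Cox4 to Cox8 or Atp5, together with Sdha, Sdhb, Sdhc, Sdhd and Cyc1. This gave 97 genes of 21883 protein-coding genes: 49 named for complex I, 4 for complex II, 9 for complex III, 18 for complex IV and 17 for complex V. Of the 97, 78 were counted as general subunits of the 5 complexes. The others are 8 Ndufaf assembly factors, 7 tissue isoforms of cytochrome c oxidase, 2 further copies of Ndufb4, and Ndufa4 with its paralogue Ndufa4l2. Ndufa4 and Ndufa4l2 were placed with complex I by symbol alone and set apart from its subunits. A gene was counted as called in a list when a region of that list came within 1 kb of either end of its record in mm10.

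ChIP-seq, sequencing of DNA pulled down with an antibody, was done for BRD2 and for BRD3 in cells left untreated or treated for 4 h: with 50 ng/ml RANKL, with 500 nM I-BET, or with the 2 agents at once. RANKL is the cytokine that turns precursors into osteoclasts. BET proteins hold acetylated histones with their bromodomains, and the inhibitor I-BET blocks that hold. All cells were fixed for 15 min in 1% formaldehyde. The series holds 12 libraries, 1 for each antibody and treatment and 1 input for each treatment, and the 8 peak lists held 245 to 3840 regions. With 1 library per group there is no replicate error and no test, the depth behind each list is unknown, and the 95% intervals given are exact (Clopper-Pearson) and cover counting error only. Of 10 macrophage marker genes, 8 were called in at least 1 list, where 21.2% of all protein-coding genes were. Of 12 markers of other cell types none was, which allows a share of up to 26.5% and so holds that background.

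Oxidative phosphorylation passes electrons from NADH through complex I and from succinate through complex II to quinone, then through complex III, cytochrome c and complex IV to oxygen. Protons pumped on the way drive complex V, the ATP synthase. Most subunits are encoded in the nucleus, and many of their promoters are known to carry a site for NRF1 (nuclear respiratory factor), a transcription factor that binds a GC-rich palindrome, alongside sites for GABP and YY1. Osteoclasts are rich in mitochondria, and macrophages change their use of oxidative phosphorylation with activation.

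The promoters of the 6 members called in 5 or more lists are printed here, because they show both members with the letters that went with BRD3 calls in what follows and members called without them. Each is the 150 bases before the annotated start, from RefSeq (GRCm38.p6, the mm10 build), written 5′ to 3′ on the gene's strand. Capitals mark matches to the NRF1 letters (GCGC, any base, TGCGC), the GABP letters CCGGAAG, the NFY letters CCAAT or the SP1 letters GGGCGG, read on either strand.
Sdha promoter, chr13:74350241-74350390, minus strand: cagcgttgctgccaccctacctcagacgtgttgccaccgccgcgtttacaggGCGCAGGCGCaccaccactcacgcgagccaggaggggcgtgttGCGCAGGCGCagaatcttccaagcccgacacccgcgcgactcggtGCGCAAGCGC
Sdhd promoter, chr9:50603850-50603999, minus strand: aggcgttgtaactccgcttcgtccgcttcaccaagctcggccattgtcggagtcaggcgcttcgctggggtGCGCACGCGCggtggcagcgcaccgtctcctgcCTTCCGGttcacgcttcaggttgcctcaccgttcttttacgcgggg
Atp5g2 promoter, chr15:102671048-102671197, minus strand: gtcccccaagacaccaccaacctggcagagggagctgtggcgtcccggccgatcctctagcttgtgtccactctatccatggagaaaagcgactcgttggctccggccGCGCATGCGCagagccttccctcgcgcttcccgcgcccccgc
Uqcrh promoter, chr4:116075071-116075220, minus strand: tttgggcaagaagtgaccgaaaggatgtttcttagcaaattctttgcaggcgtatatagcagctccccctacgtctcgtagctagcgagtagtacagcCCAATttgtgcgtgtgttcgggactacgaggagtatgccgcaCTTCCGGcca
Ndufa13 promoter, chr8:69902021-69902170, minus strand: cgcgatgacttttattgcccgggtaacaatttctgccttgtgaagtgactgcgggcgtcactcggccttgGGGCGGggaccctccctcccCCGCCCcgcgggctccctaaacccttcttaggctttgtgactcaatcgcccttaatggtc
Ndufb6 promoter, chr4:40279422-40279571, minus strand: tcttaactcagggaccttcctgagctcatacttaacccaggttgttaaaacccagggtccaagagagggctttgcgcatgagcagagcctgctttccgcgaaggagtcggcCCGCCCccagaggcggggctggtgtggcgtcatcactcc

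In Sdha, the flavoprotein subunit of succinate dehydrogenase, the NRF1 letters occurred at 3 places, the nearest ending at the base before the start. Sdhd, a membrane anchor of the same enzyme, held 1 NRF1 match and 1 GABP match, and Atp5g2, a gene for the c subunit of the ATP synthase ring, held 1 NRF1 match. Uqcrh, the hinge subunit of complex III, had no NRF1 match in this window and held the GABP and NFY letters. Ndufa13 and Ndufb6, accessory subunits of complex I, had no NRF1 match and held the SP1 letters. Sdha, Sdhd, Atp5g2, Ndufa13 and Ndufb6 were called in all 4 BRD3 lists, and Uqcrh in all 4 BRD2 lists and 1 BRD3 list.

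Of the 97 genes, 56 were called in at least 1 of the 8 lists, or 57.7% (47.3 to 67.7), where 21.2% of all protein-coding genes were. BRD3 called 46 of them in at least 1 list, or 47.4% (37.2 to 57.8) against 17.4% of all genes. BRD2 called 23, or 23.7% (15.7 to 33.4) against 8.84%. In each of these 3 counts the members' interval lay above the share of all genes. The genes are shorter than most, with a median record of 7177 bp against 17170 bp, and the background includes genes that these cells may not use.

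**Figure D1:**
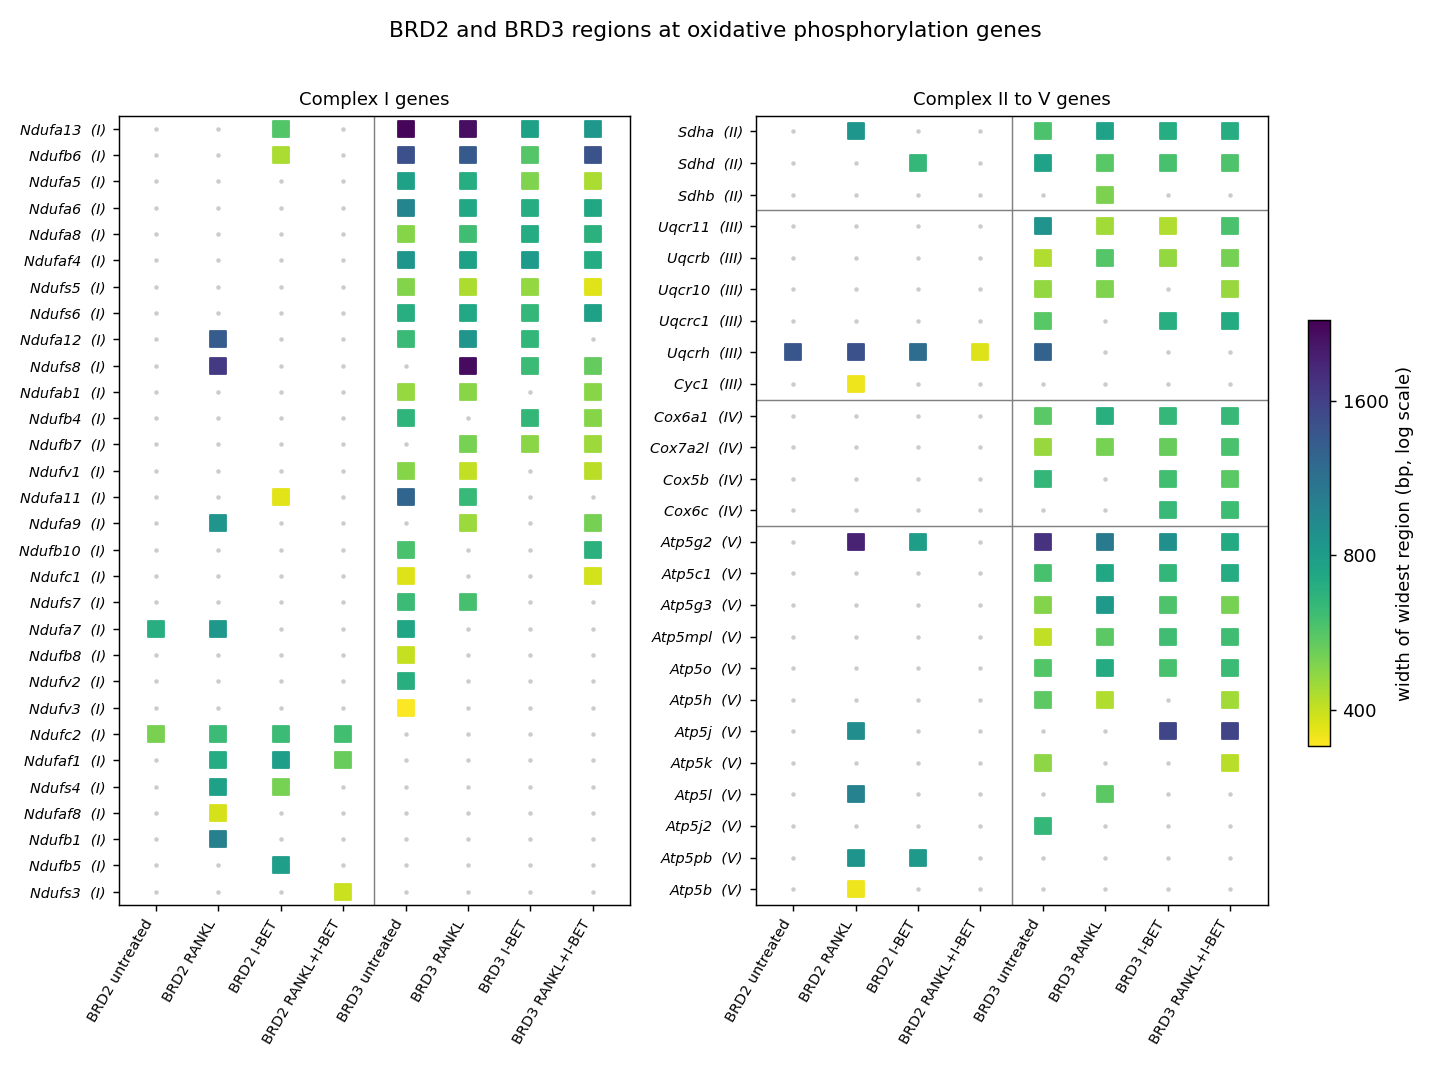
Each row is an oxidative phosphorylation gene called in any list, with its complex in brackets (1 of the 56 is not drawn), and each column is 1 peak list; a square marks a called gene, coloured by the width in bp (log scale) of its widest region, and a grey dot marks no call. BRD3 calls fill most of the right side of both panels, BRD2 calls are scattered, and complex IV has no BRD2 call.

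BRD3 was called at 39 of the 97 genes in untreated cells (40.2%, 30.4 to 50.7), beside 14.0% of all genes. It was called at 32 under RANKL (33.0%, 23.8 to 43.3; 13.7% of all genes), at 28 under I-BET (28.9%, 20.1 to 39.0; 9.73%) and at 35 under RANKL with I-BET (36.1%, 26.6 to 46.5; 11.9%). BRD2 was called at 3 in untreated cells (3.09%, 0.642 to 8.77), beside 2.26% of all genes. The BRD2 count was 17 under RANKL (17.5%, 10.6 to 26.6; 6.21% of all genes), 11 under I-BET (11.3%, 5.8 to 19.4; 3.79%) and 4 under RANKL with I-BET (4.12%, 1.13 to 10.2; 0.978%). The share of members stood above the background in all 8 lists, and its interval held the background in BRD2 untreated cells alone. Among the 78 subunit genes the BRD3 shares were 48.7%, 39.7%, 34.6% and 43.6% in the same order of treatments.

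**Figure D2:**
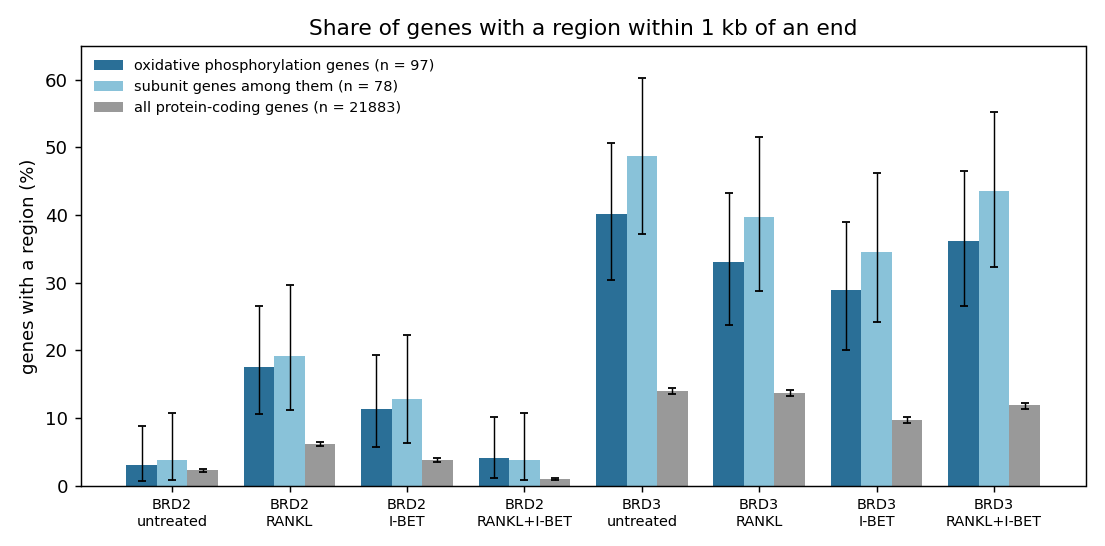
Bars give the percent of genes with a region within 1 kb of an end in each of the 8 lists, for the 97 oxidative phosphorylation genes, the 78 subunit genes among them and all 21883 protein-coding genes; error bars are exact 95% binomial intervals that cover counting error only. In the 4 BRD3 lists the members reach 28.9% to 40.2%, and all genes 9.73% to 14.0%.

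The counts by complex below stand beside 21.2% of all genes called in any list, 17.4% by BRD3 and 8.84% by BRD2. Complex I, the NADH dehydrogenase, had 31 of 49 genes called. Its core subunits carry the flavin, the iron-sulphur clusters and part of the quinone site, and of these Ndufs1 was in no list. Ndufv2 was called by BRD3 in untreated cells only, Ndufs7 in untreated and RANKL-treated cells, and Ndufv1, the flavin subunit, in all BRD3 lists but that of I-BET. Ndufs8 was absent from BRD3 in untreated cells and present in the other 3 BRD3 lists. Ndufs3 was called only by BRD2 under RANKL with I-BET.

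Accessory subunits of complex I surround that core, and 22 of 30 were called, 18 of them by BRD3. The 7 in all 4 BRD3 lists were Ndufa5, Ndufa6, Ndufa8, Ndufa13, Ndufb6, Ndufs5 and Ndufs6. The 8 in no list were Ndufa1, Ndufa2, Ndufa3, Ndufa10, Ndufb2, Ndufb3, Ndufb9 and Ndufb11. The copies Ndufb4b and Ndufb4c, and Ndufa4 and Ndufa4l2, were not called, whereas Ndufb4 itself was in 3 BRD3 lists.

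Ndufa13 (GRIM-19), an accessory subunit also known as a partner of STAT3, had the widest BRD3 region of the set. In untreated cells it ran over chr8:69901399-69903645 (2247 bp) and under RANKL over chr8:69901502-69903641 (2140 bp). The BRD3 regions under I-BET (chr8:69902929-69903697, 769 bp) and under RANKL with I-BET (chr8:69902810-69903636, 827 bp) lay wholly upstream of the start at base 69902020. The untreated and RANKL regions covered the start and the 2 I-BET regions did not. BRD2 under I-BET had a region on the other side of the start, chr8:69901355-69901924, that shared no base with the BRD3 region of that treatment. Tssk6, a testis kinase gene that starts 164 bp away in the opposite direction, lay in reach of all of these regions.

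Ndufb6, an accessory subunit of the membrane arm, had 2 separate places. A region over its start was present for BRD3 in untreated cells (chr4:40279253-40279825), under I-BET and under RANKL with I-BET. A second, at the far end next to Topors and Smim27, was present for BRD3 in untreated cells (chr4:40268432-40269878), under RANKL and under RANKL with I-BET, and for BRD2 under I-BET. Its call under BRD3 RANKL and its call by BRD2 thus rested on the far end alone.

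Of the 8 Ndufaf assembly factors, which help to build complex I and do not stay in it, 3 were called, beside 21.2% of all genes. Ndufaf4 was in all 4 BRD3 lists and Ndufaf1 in 3 BRD2 lists, and Ndufaf8 was in the BRD2 RANKL list. Ndufaf2, Ndufaf3, Ndufaf5, Ndufaf6 and Ndufaf7 were in none.

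Complex II, succinate dehydrogenase, had 3 of its 4 genes called. Sdha carried a BRD3 region over its start in every treatment, of 585, 762, 704 and 699 bp in untreated, RANKL, I-BET and combined treatment, the first at chr13:74349983-74350567. BRD2 was called at the same place under RANKL (chr13:74349907-74350746). Sdhd likewise had BRD3 regions of 763, 558, 591 and 578 bp, the first at chr9:50603470-50604232, and a BRD2 region under I-BET (chr9:50603568-50604210). Sdhb, the iron-sulphur subunit, was called by BRD3 under RANKL only, and Sdhc in no list.

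Of the 9 genes of complex III, the cytochrome bc1 complex, 6 were called. Uqcr11 and Uqcrb were in all 4 BRD3 lists, Uqcrb with an untreated region at chr13:66905149-66905574. Uqcr10 was in 3 and Uqcrc1, a core subunit, was in 3. Cyc1, the cytochrome c1 gene, was called by BRD2 under RANKL only. The Rieske subunit gene Uqcrfs1, Uqcrc2 and Uqcrq were in no list.

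Uqcrh was 1 of 2 members in all 4 BRD2 lists, as were 0.224% of all genes. Its BRD2 regions spanned 1380 bp in untreated cells (chr4:116075406-116076785), 1432 bp under RANKL, 1174 bp under I-BET and 377 bp under RANKL with I-BET. Of these, the I-BET region covered the Uqcrh start and the other 3 lay upstream, on the side of Lrrc41, which starts 199 bp away on the opposite strand. BRD3 was called there in untreated cells only, over 1264 bp.

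Complex IV, cytochrome c oxidase, had the lowest share called of the 5 complexes. Of its 18 genes, 4 were called, all by BRD3: Cox5b, Cox6a1, Cox6c and Cox7a2l. That is near the 21.2% of all genes called in any list. None was called by BRD2, which allows a share of up to 18.5%. This bound lies inside the interval of all members (15.7 to 33.4) and above the 8.84% of all genes. The 4 were among the 11 generally expressed genes, and the 7 isoforms of muscle, lung or testis were in no list, which allows up to 41.0%. Cox6a1 had a BRD3 region over its start in each treatment, of 556, 688, 644 and 638 bp, the first at chr5:115348809-115349364. Cox7a2l, a factor for supercomplexes of complexes III and IV, was also in all 4 BRD3 lists (untreated chr17:83514338-83514794, whose near edge lay 5 bp upstream of the start). Cox6c was called only in the 2 lists with I-BET. The general genes in no list were Cox4i1, Cox5a, Cox6b1, Cox7a2, Cox7b, Cox7c and Cox8a. Cox5a had a BRD3 region over its annotated start in untreated cells, more than 1 kb from either record end, and so was not counted.

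For complex V, 12 of 17 genes were called. Atp5g2 was in 6 lists, more than any other member. Its BRD3 regions spanned 1745 bp in untreated cells (chr15:102670280-102672024), 1057 bp under RANKL, 888 bp under I-BET and 718 bp under RANKL with I-BET, and each covered the start. BRD2 regions of 1909 bp under RANKL and 797 bp under I-BET covered it too. Atp5c1, the γ subunit of the catalytic head, Atp5g3, Atp5mpl and Atp5o, a subunit of the peripheral stalk, were also in all 4 BRD3 lists, Atp5mpl with an untreated region at chr12:111966837-111967243. The β subunit gene Atp5b was called by BRD2 under RANKL only, and Atp5a1, Atp5d, Atp5e, Atp5g1 and Atp5md were in no list. Atp5d had a BRD3 region over its annotated starts in all 4 BRD3 lists, more than 1 kb from either record end, and so was not counted.

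**Figure D3:**
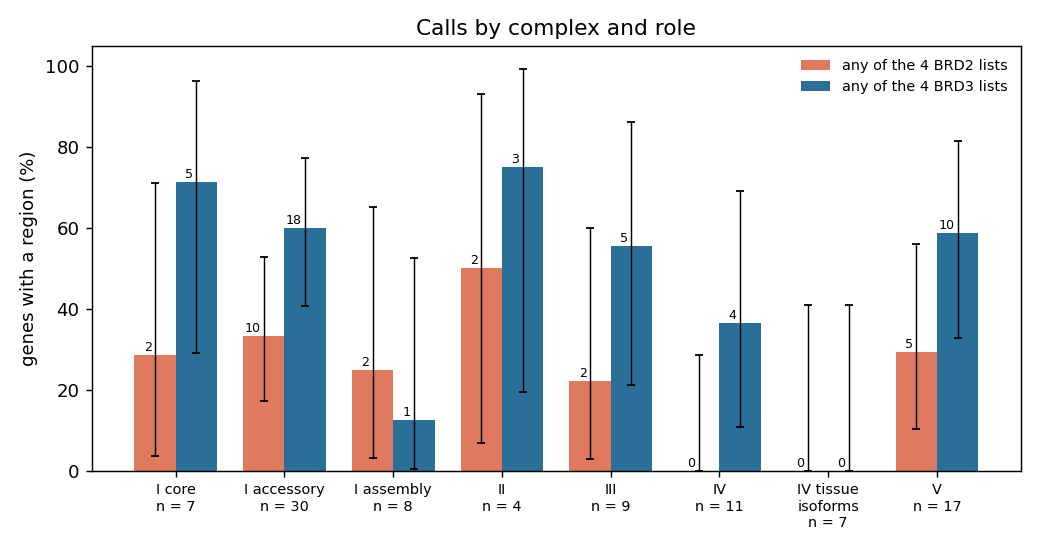
Bars give the percent of genes called in any of the 4 BRD2 lists and in any of the 4 BRD3 lists by complex and role, with the count beside each bar and exact 95% binomial intervals; Ndufa4, Ndufa4l2 and the 2 Ndufb4 copies, all uncalled, are not drawn. BRD3 calls reach 18 of 30 accessory subunits of complex I and 4 of 11 general genes of complex IV, and the intervals of most groups overlap. Over all genes, 17.4% were called by BRD3 and 8.84% by BRD2.

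Regions at these genes sat on the start. For the 78 members with a start in the promoter table, 116 of 122 BRD3 gene and region pairs covered an annotated start (95.1%), where 81.8% did over all genes, and 29 of 34 BRD2 pairs did (85.3% against 75.1%). With bases upstream of the start counted as negative, BRD3 midpoints had a median of -33.5 bp and quartiles of -89.8 and 5.5 bp. BRD2 midpoints were spread more widely, with a median of -41.5 bp and quartiles of -187.2 and 155.8 bp. The members with a region that missed the start were Ndufa13, Ndufb6, Uqcrh and Cox7a2l.

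**Figure D4:**
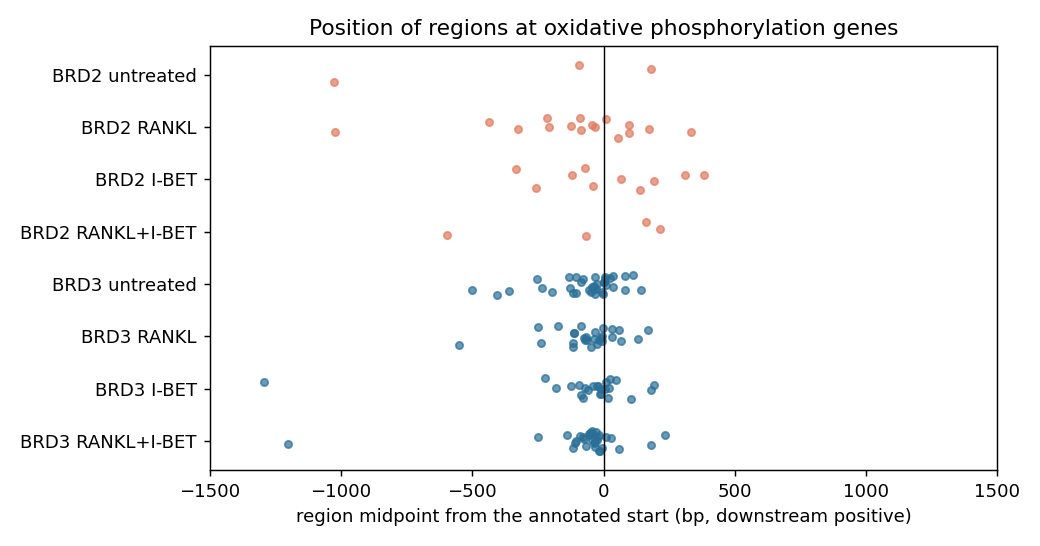
Each point is the midpoint of 1 region at a member with an annotated start, in bp from that start (downstream positive), by list; points are spread vertically at random for sight, and 4 far-end regions of Ndufb6 fall outside the axis. BRD3 midpoints crowd just upstream of 0, and the BRD2 RANKL and I-BET midpoints spread more widely.

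The median width of member regions was below that of all regions at gene ends in 6 of the 8 lists. The BRD3 medians were 587.5, 604.5, 631 and 588.5 bp in untreated, RANKL, I-BET and combined treatment, beside 687, 653, 652 and 587 bp for all regions at gene ends. The BRD2 medians, over 3, 17, 11 and 4 member regions, were 693, 849, 643 and 462.5 bp, beside 817, 828, 820 and 567 bp. Only 3 member regions exceeded 2 kb, at Ndufa13 in untreated and RANKL cells and at Ndufs8 under RANKL. By the authors' score, the median member region ranked above 40.3% to 44.2% of its BRD3 list, and above 18.7%, 55.9%, 66.9% and 61.7% of its BRD2 list.

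Some of these genes start beside a gene on the opposite strand. Of the 78 members with a known start, 24 (30.8%, 20.8 to 42.2) had the start of a gene on the other strand within 1 kb, against 9.61% of all genes. The layout was divergent in 22, and in Ndufa1 with Rnf113a1 and Ndufb11 with Rbm10 the starts overlapped. Pairs include Sdhd with the mitochondrial import gene Timm8b (52 bp apart), Ndufa7 with the ribosomal protein gene Rps28 (10 bp), Ndufb5 with the mitochondrial ribosome gene Mrpl47 (308 bp) and Atp5j with Gabpa, a subunit of GABP (148 bp). A region at such a pair counts for both genes. Members with such a neighbour were called by BRD3 in 12 of 24 cases (50.0%) and those without in 30 of 54 (55.6%), while over all genes the shares were 40.0% and 15.5%. Of the member regions, 38.9% to 66.7% by list touched another gene's window, against 18.6% to 21.5% of all regions at gene ends.

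BRD3 calls went with the NRF1 letters. The promoter window, 250 bases before to 50 after the start, held the NRF1 letters on either strand in 19 of 78 members (24.4%, 15.3 to 35.4), against 7.17% of all 17491 genes with a promoter entry. Of the 19, 18 were called by BRD3 (94.7%, 74.0 to 99.9), and all 18 were in the untreated list. Of the 59 without the letters, 24 were (40.7%, 28.1 to 54.3). Over all genes BRD3 was called at 77.4% of those with the letters and 13.2% of those without, a split in the same direction. The 19 members and their lists were looked at more closely after this difference was seen.

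Windows of 30 bases around 1 match are printed for the 10 further members with the letters in all 4 BRD3 lists, and for the 1 member with the letters and no call, with the matched bases in capitals.
Atp5g3, chr2:73911295-73911324, minus strand: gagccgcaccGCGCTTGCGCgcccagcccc
Atp5o, chr16:91931602-91931631, minus strand: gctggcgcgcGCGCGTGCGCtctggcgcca
Cox6a1, chr5:115349056-115349085, minus strand: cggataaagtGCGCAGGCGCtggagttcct
Ndufa5, chr6:24527697-24527726, minus strand: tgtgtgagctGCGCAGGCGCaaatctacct
Ndufa6, chr15:82354249-82354278, minus strand: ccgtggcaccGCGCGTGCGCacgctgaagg
Ndufa8, chr2:36049349-36049378, minus strand: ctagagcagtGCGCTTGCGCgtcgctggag
Ndufaf4, chr4:24897960-24897989, plus strand: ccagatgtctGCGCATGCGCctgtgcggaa
Ndufs5, chr4:123718265-123718294, minus strand: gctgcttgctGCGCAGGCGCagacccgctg
Ndufs6, chr13:73328479-73328508, minus strand: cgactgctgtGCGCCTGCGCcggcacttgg
Atp5c1, chr2:10080430-10080459, minus strand: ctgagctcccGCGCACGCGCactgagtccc
Ndufaf5, chr2:140170652-140170681, plus strand: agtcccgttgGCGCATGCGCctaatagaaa

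The first 10 of these, with Sdha, Sdhd and Atp5g2, are the 13 members that held the letters and were in all 4 BRD3 lists. They come from complexes I, II, IV and V and include 1 assembly factor, Ndufaf4. Ndufaf5, another assembly factor of complex I, has the same letters as the Atp5g2 and Ndufaf4 matches and was in no list. Of the 17 members with a promoter entry in all 4 BRD3 lists, the 4 without the letters were Cox7a2l, Ndufa13, Ndufb6 and Uqcr11. The other 5 with the letters were Atp5h, Ndufb4 and Uqcrc1 in 3 BRD3 lists and Atp5k and Ndufa11 in 2.

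The share of promoters with the letters was highest among members in all 4 BRD3 lists. It was 1 of 36 in members called in no BRD3 list (2.78%, 0.0703 to 14.5), 0 of 8 in 1 list, 2 of 7 in 2, 3 of 10 in 3 and 13 of 17 in all 4 (76.5%, 50.1 to 93.2). Over all genes it went from 1.97% to 7.9%, 18.1%, 31.6% and 46.5%. In members the intervals of the groups with 1, 2 and 3 lists overlap, and the groups with no list and with all 4 lists are apart. With 1 mismatch allowed, the letters were in 6 of 36, 6 of 8, 4 of 7, 7 of 10 and 15 of 17 (16.7% with no list and 88.2% with all 4), and the intervals of the groups with 1 to 4 lists overlap. None of the 9 members with a promoter entry that BRD2 called and BRD3 did not held the letters, which allows a share of up to 33.6%.

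**Figure D5:**
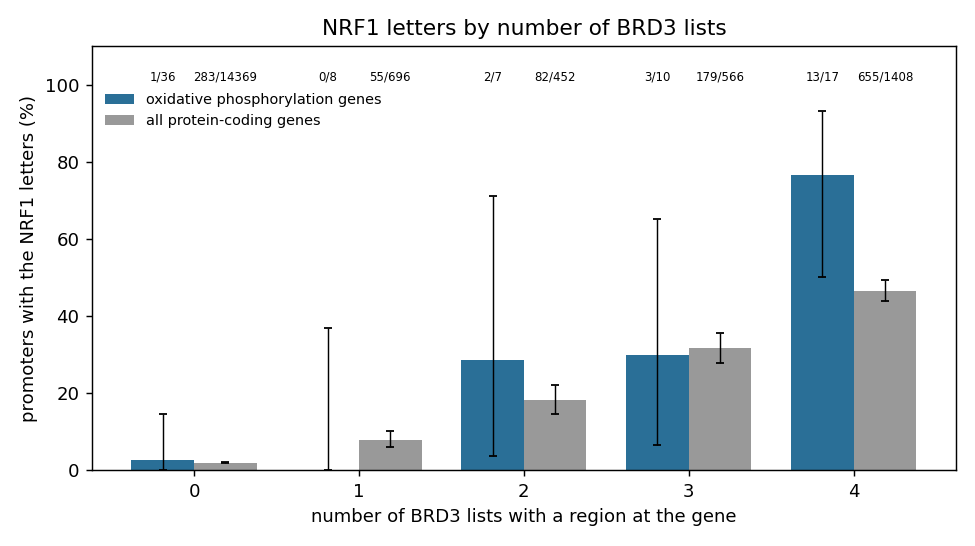
Bars give the percent of promoters (250 bases before to 50 after the start) that hold the NRF1 letters, by the number of BRD3 lists in which the gene was called, for oxidative phosphorylation genes and for all protein-coding genes with a promoter entry; counts stand above the bars and error bars are exact 95% binomial intervals. Members go from 1 of 36 with no BRD3 list to 13 of 17 with all 4.

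The midpoints of BRD3 regions lay near the NRF1 match. For each motif only matches inside the region were counted. BRD3 midpoints at members also lay near the start (median -33.5 bp), and nearness to the match and to the start was not told apart. At members with the letters the midpoint of a BRD3 region lay a median of 22 bp from the nearest match (quartiles 10 and 60, 65 gene and region pairs), and 34.0 bp over all genes. For the GABP letters the medians were 99.5 bp at members and 91.5 bp over all genes, for NFY 98.0 and 106 bp, and for the SP1 letters GGGCGG 65.5 and 64.0 bp. BRD2 midpoints lay 121 bp from the NRF1 letters over all genes. These are distances in the called regions, which share their libraries and members, and no test was made of them.

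Base composition moves with both the letters and the calls: the median number of CpG in the window was 20 in members called by BRD3 and 17 in those not called, with 24 and 10 over all genes. Within the third CpG quartile of all promoters (14 to 24 CpG), 9 of 10 members with the letters were called by BRD3 and 15 of 31 without. Within the fourth (25 to 65 CpG) it was 9 of 9 and 5 of 15. Over all genes the shares with and without the letters were 76.5% and 20.0% in the third quartile and 83.5% and 25.9% in the fourth. The difference was present within each of these wide quartiles. For the quartiles CpG was counted in the first promoter entry of a gene, and the letters were sought in any entry. Whether CpG content accounts for the difference was not tested.

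In members, the shares with the letters of other factors differed less between called and uncalled genes than those with the NRF1 letters (42.9% and 2.78%). GABP's were in 24.4% of member promoters (12.9% of all), and in 28.6% of members called by BRD3 and 19.4% of those not called. The YY1 letters AANATGGCG were in 14.1% (3.64% of all), in 16.7% of the called and 11.1% of the uncalled. SP1's were in 44.9% (49.2% of all), in 42.9% of the called and 47.2% of the uncalled, whereas over all genes they were in 71.7% of the called and 44.3% of the uncalled, beside 31.1% and 1.97% for NRF1. NFY's were in 43.6% (42.3% of all), in 38.1% of the called and 50.0% of the uncalled (40.3% and 42.8% over all genes). The E-box CACGTG (7.69% and 8.91%), the PU.1 letters GAGGAAGT (3.85% and 3.64%) and the TATA box TATAAA (10.3% and 14.8%) were near the share of all promoters. For GABP, YY1, SP1 and NFY the intervals of called and uncalled members overlap.

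The comparison of RANKL with untreated cells asks what the osteoclast signal does to BET binding at these genes. BRD3 was called at 27 members in both untreated and RANKL-treated cells, and every such pair of regions overlapped. In untreated cells only it was called at 12: Atp5j2, Atp5k, Cox5b, Ndufa7, Ndufb10, Ndufb4, Ndufb8, Ndufc1, Ndufv2, Ndufv3, Uqcrc1 and Uqcrh. Under RANKL only it was called at 5: Atp5l, Ndufa9, Ndufb7, Ndufs8 and Sdhb. Of members in the untreated list 69.2% (52.4 to 83.0) were also in the RANKL list, beside 78.4% of all genes, or 21.6% not called again. In the other direction 84.4% (67.2 to 94.7) of the RANKL members were in the untreated list, and 20.0% of all genes were not. The members' intervals hold the values of all genes in both directions.

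BRD2 went the other way in number. All 3 members called in untreated cells, Ndufa7, Ndufc2 and Uqcrh, were called under RANKL, where over all genes 46.0% of those called untreated were not. A further 14 were called under RANKL only: Atp5b, Atp5g2, Atp5j, Atp5l, Atp5pb, Cyc1, Ndufa12, Ndufa9, Ndufaf1, Ndufaf8, Ndufb1, Ndufs4, Ndufs8 and Sdha. They make up 14 of 17, where 80.4% of all genes in the BRD2 RANKL list were not called untreated. Between these lists the count over all genes went from 494 to 1360. With the BRD2 lists held to equal length by score, 0 members were called untreated and 2 under RANKL, beside 0.85% and 0.877% of all genes.

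Ndufa9, an accessory subunit at the joint of the 2 arms of complex I, and Ndufs8, a core iron-sulphur subunit, were called by both antibodies under RANKL and by neither in untreated cells, as was Atp5l. The share of all genes with this joint pattern was not counted. By the authors' score the BRD2 RANKL region at Ndufa9 ranked above 98.5% of its list and that at Atp5b above 96.6%. The BRD2 RANKL regions at Ndufs8 and Atp5l ranked above 81.9% and 62.6%. In the BRD3 RANKL list, the regions at Ndufa9, Ndufs8 and Atp5l ranked above 68.9%, 27.2% and 40.6%. The Ndufs8 regions were wide, 1659 bp for BRD2 and 2170 bp for BRD3, and also reached Aldh3b1.

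The comparison of I-BET with untreated cells asks where the inhibitor changes BET binding. BRD3 was called at 24 members in both untreated and I-BET-treated cells, at 15 in untreated cells only and at 4 under I-BET only. The 15 were Atp5h, Atp5j2, Atp5k, Ndufa11, Ndufa7, Ndufab1, Ndufb10, Ndufb8, Ndufc1, Ndufs7, Ndufv1, Ndufv2, Ndufv3, Uqcr10 and Uqcrh, and the 4 were Atp5j, Cox6c, Ndufb7 and Ndufs8. Of the members called untreated 61.5% (44.6 to 76.6) stayed in the list, as did 61.0% of all genes (39.0% not called again). Of genes in the I-BET list 12.3% were not called untreated. With the BRD3 lists held to equal length by score, 15 members were in the I-BET list only and 7 in the untreated list only, so the order of the 2 lists turns with their length. BRD3 was then called at 9.73% of all genes under I-BET and 8.56% in untreated cells.

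The calls kept under I-BET were split by the NRF1 letters. Of 18 with the letters and a BRD3 call in untreated cells, 15 were also called under I-BET (83.3%, 58.6 to 96.4), and of 18 without the letters 6 were (33.3%, 13.3 to 59.0). The 3 with the letters that were not were Atp5h, Atp5k and Ndufa11. The 2 intervals just meet, and the difference was not tested. All genes with a promoter entry gave 83.7% and 51.0%. From RANKL to RANKL with I-BET, 14 of 15 members with the letters and 10 of 14 without were called again, against 93.3% and 69.0% of all genes, and here the members' intervals overlap. With 1 mismatch allowed, 19 of 29 with the letters (65.5%) and 2 of 7 without (28.6%) were kept from untreated to I-BET. Over all genes it was 72.4% and 44.6%. From RANKL to RANKL with I-BET, 19 of 23 with (82.6%) and 5 of 6 without (83.3%, 35.9 to 99.6) were kept. This second split was no longer seen in members, but over all genes it was (85.9% and 62.7%). In both comparisons the members' intervals overlap, and the members without the letters are too few to tell a split from none. From untreated to RANKL, with the exact letters, the counts were 15 of 18 and 9 of 18 (91.1% and 72.7% of all genes).

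BRD2 under I-BET was called at 2 of the 3 untreated members, Ndufc2 and Uqcrh, and not at Ndufa7 (over all genes 52.8% were not called again). It was called at 9 more: Atp5g2, Atp5pb, Ndufa11, Ndufa13, Ndufaf1, Ndufb5, Ndufb6, Ndufs4 and Sdhd. These 9 of 11 stand beside 71.9% of all genes in that list.

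When I-BET was given with RANKL, BRD3 was called at 27 of the 32 RANKL members and at 8 others. Those lost were Atp5l, Ndufa11, Ndufa12, Ndufs7 and Sdhb, or 5 of 32 beside 23.5% of all genes. Those gained were Atp5j, Atp5k, Cox5b, Cox6c, Ndufb10, Ndufb4, Ndufc1 and Uqcrc1, or 8 of 35 beside 11.6% (members in both, 77.1%, 59.9 to 89.6). Over all genes 88.4% were in both, which the members' interval holds. Set against I-BET alone, 27 of 28 were called again, all but Ndufa12 (6.1% of all genes not called again). The 8 called only with RANKL added were Atp5h, Atp5k, Ndufa9, Ndufab1, Ndufb10, Ndufc1, Ndufv1 and Uqcr10, beside 23.0% of all genes. Of these 8, 7 had been called in untreated cells, all but Ndufa9, and 5 under RANKL alone, Atp5h, Ndufa9, Ndufab1, Ndufv1 and Uqcr10. With the lists held to equal length by score, 4 members were in the combined list only and 8 in the I-BET list only, so this order turned. BRD3 was then called at 9.55% of all genes with both agents and 9.73% under I-BET.

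BRD2 was called at 4 members under the combined treatment: Ndufaf1, Ndufc2, Ndufs3 and Uqcrh. Of the 17 under RANKL, 14 were not called again, beside 90.4% of all genes, and of the 11 under I-BET, 8 were not, beside 84.6%. Ndufs3 was the 1 member called with both agents and with neither alone (38.8% and 40.2% of all genes in the combined list were absent from the RANKL and I-BET lists). That list was the shortest, at 214 genes, and with the BRD2 lists held to its length 4 members were in it only and 2 in the RANKL list only, with the same counts against I-BET.

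BRD2 and BRD3 shared few of these genes, as they did over all genes. In each treatment and direction the members' interval for the shared part held the share of all genes. In untreated cells 37 members had BRD3 alone (91.7% of all BRD3 genes lacked BRD2), Ndufc2 had BRD2 alone (48.6% of BRD2 genes lacked BRD3), and Ndufa7 and Uqcrh had both. Under RANKL, 6 had both, Atp5g2, Atp5l, Ndufa12, Ndufa9, Ndufs8 and Sdha, with 26 BRD3 alone (80.2%) and 11 BRD2 alone (56.2%). Under I-BET, 4 had both, Atp5g2, Ndufa13, Ndufb6 and Sdhd, with 24 BRD3 alone (89.7%) and 7 BRD2 alone (73.5%). With both agents no member had both, 35 had BRD3 alone (97.4%) and 4 BRD2 alone (68.7%). Wherever a member was in both lists the regions overlapped, except at Ndufa13 and Ndufb6 under I-BET.

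Of the 46 members called by BRD3, 20 were in all 4 lists (43.5%), where 44.1% of all such genes were. Of the 23 called by BRD2, 10 were in no BRD3 list, where 43.1% of all such genes were. These 10 were Atp5b, Atp5pb, Cyc1, Ndufaf1, Ndufaf8, Ndufb1, Ndufb5, Ndufc2, Ndufs3 and Ndufs4. Ndufc2, an accessory subunit of complex I, was the member with BRD2 in all 4 lists and BRD3 in none. Its BRD2 regions spanned 499, 623, 623 and 607 bp in untreated, RANKL, I-BET and combined treatment, and each covered the start, with midpoints 97 to 214 bp downstream.

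The other genes of the pathway were read from lists outside the symbol rule. As background to the counts below, 21.2% of all genes were called in some list. In untreated, RANKL, I-BET and combined treatment BRD3 was called at 14.0%, 13.7%, 9.73% and 11.9% of all genes. BRD2 was called at 2.26%, 6.21%, 3.79% and 0.978%. All 4 BRD3 lists held 1674 of the 21883 genes. Of 41 assembly factors of complexes I to V, 25 were called in some list. BRD3 was called at 13 of them in untreated cells, 12 under RANKL, 5 under I-BET and 8 with both, and Ecsit and Uqcc2 were in all 4. BRD2 was called at 2, 11, 3 and 2. Of 9 genes for cytochrome c, carriers and electron-transfer flavoproteins 6 were called, among them the cytochrome c gene Cycs and the phosphate carrier gene Slc25a3. Of 16 genes of the citrate cycle and its entry 7 were called, with Dld, Idh3a and Ogdh in all 4 BRD3 lists. Of 16 regulators of respiratory genes 5 were called, Nrf1, Gabpa, Yy1, Esrra and Polrmt, and Esrra and Polrmt were in all 4 BRD3 lists. Of the macrophage markers 6 of 10 were called by BRD3 untreated, 7 under RANKL, 1 under I-BET and 0 with both.

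The window decided a few calls. The farthest region still counted was 933 bp from a gene end, at Atp5g3 in untreated cells, where it nonetheless covered an annotated start. With a window of 2.5 kb the counts were 39, 33, 30 and 35 for BRD3 and 3, 18, 11 and 4 for BRD2. Of the members in no list, the one with the nearest region was Atp5d, the δ subunit gene, at 2483 bp from an end. It had a BRD3 region inside its record in all 4 lists, each covering its annotated starts, with midpoints 405 to 425 bp from the nearest. Cox5a had 1 such region, in untreated cells, which covered its start with a midpoint 153 bp from it. Both genes stand as not called by BRD3 in the counts by complex and by promoter letters. Counting annotated starts as well as record ends raised the BRD3 counts to 41, 33, 29 and 36 and left the BRD2 counts as they were. Of the 41 members in no list, 8 had a region within 10 kb, and the median distance to the nearest was 37682 bp.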

How the data were processed

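The authors deposited 8 peak lists, 1 for each antibody and treatment. Each line gives a region, the joined peaks and a score, the authors' own value, used here only to rank regions within a list. The submitters' processing notes name MACS2 2.1.1.20160309, Bowtie2 2.3.4.1, FastQC and the build mm10 (GRCm38); settings are not given in the sources used here. Per the peak names, 98.4% or more of the regions in each list join 3 peaks, from sets numbered 3, 5 and 7. Starts were read as counted from 0 and are printed counted from 1. Read depth is unknown, and the 4 inputs have no list here.

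Gene ends came from a RefSeq table and starts and promoters from another (both GRCm38.p6). Of the 97 members, 78 had a start; among the 19 with none were Ndufs1, Sdhc, Cox4i2, Ndufaf6, Uqcrc2, Cox6a2, Cox4i1, Ndufa4l2, Uqcrq, Cox8c, Atp5mpl, Uqcrb, Cox6c, Ndufb9, Ndufb4c, Cyc1, Ndufa2 and Atp5a1. The values of 1 member are not reported here, though it is in the counts. In addition, 19 pseudogenes matching the symbols were left out. Overlap was at least 1 bp. Counts were made in Python 3.11.15 with pandas 2.3.3 and scipy 1.17.1, and the counting was tested on simulated regions. Members, lists and motifs were chosen with earlier results of these data known. Named genes were the members in 6 or more lists, in any BRD2 list, in all 4 BRD3 lists, in 1 list only of a comparison, or in none; coordinates are given for 2 members of a complex, and other examples were chosen after their values were seen. Alternatives covered the window, the score threshold, list length, shared regions, overlap and motif settings.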

Additional observations from a re-analysis of the deposited data

Results flagged for a closer look

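The number of members called moved in opposite directions for BRD2 and BRD3 under the same treatment. From untreated cells to RANKL it changed by 14 for BRD2 and by -7 for BRD3, and from untreated cells to I-BET by 8 and by -11. From I-BET to RANKL with I-BET it changed by -7 for BRD2 and by 7 for BRD3, and from RANKL to RANKL with I-BET by -13 and by 3. Within each antibody the change with RANKL had opposite signs without and with I-BET. The change with I-BET likewise had opposite signs without and with RANKL. Each value is a difference between 2 single libraries, and neither the difference between the antibodies nor that between the settings was tested. Over all genes the calls went from 494 to 1360, 830 and 214 for BRD2 and from 3064 to 3003, 2130 and 2597 for BRD3 (untreated, RANKL, I-BET, both). With the lists of each antibody held to equal length by score, the members called were 0, 2, 2 and 4 for BRD2 and 20, 17, 28 and 24 for BRD3. The shares of all genes were then 0.85%, 0.877%, 0.832% and 0.978% for BRD2 and 8.56%, 7.98%, 9.73% and 9.55% for BRD3. For BRD3 the share of all genes thus moved in the same directions as the member count. At equal length the member count was higher for both antibodies under I-BET than in untreated cells. It was also higher for both under RANKL with I-BET than under RANKL, so these opposite movements were no longer present. From untreated cells to RANKL the directions stayed opposite, up for BRD2 and down for BRD3. From I-BET to RANKL with I-BET they were opposite but each turned, up for BRD2 and down for BRD3. With equal lengths the opposite signs within each antibody were no longer present.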

How the results depend on the processing

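Of 189 alternative values, 152 stayed within 1.5 times the reported count (for a percentage, inside the reported interval) without turning direction, 33 moved further and 4 turned direction. Windows of 500 bp and 2.5 kb, the midpoint rule, the annotated start alone, regions of exactly 3 peaks and the subunits alone moved none. With the lists of an antibody held to the length of the shortest by score, the members in 1 list only turned direction for BRD3 I-BET against untreated (22), BRD3 with both agents against I-BET (12), and BRD2 with both agents against RANKL (6) and against I-BET (6). That setting also gave 0, 2 and 2 members for BRD2 untreated, RANKL and I-BET, beside 0.85%, 0.877% and 0.832% of all genes. For BRD3 untreated and RANKL it gave 20 and 17, beside 8.56% and 7.98%. Members in 1 list only were then 23 for BRD3 with both agents against RANKL, 2 for BRD2 RANKL and 2 for BRD2 I-BET against untreated, and 20 and 17 for BRD2 against BRD3 untreated and under RANKL. The top 50% of each list gave 0 for BRD2 untreated and 7 for BRD2 I-BET, beside 1.03% and 1.85% of all genes. For BRD3 it gave 16, 13, 13 and 16, beside 7.05%, 6.76%, 5.03% and 6.12%. Members in 1 list only were then 15 for BRD3 with both agents against I-BET. They were 16, 19, 16 and 19 for BRD2 against BRD3 in the 4 treatments. Regions touching no other gene gave 1, 9, 4 and 2 for BRD2 and 24, 18, 17 and 22 for BRD3. A 50% overlap left 1 shared member for BRD2 I-BET against untreated, and 250 bases before the start alone left 3 with the YY1 letters. Of the alternatives added after seeing the data, 1 mismatch raised the members with the NRF1 letters to 38. Of these, 84.2% were called by BRD3 (10 of the 40 without). In members it left no split of BRD3 calls kept from RANKL to RANKL with I-BET (82.6% with and 5 of 6 without). Over all genes that split stayed (85.9% and 62.7%). The fourth CpG quartile gave 100% called. The cause was not tested beyond the shorter lists these settings make. No paired analysis was possible because each group has 1 library and the result comes from no test, and for the same reason no replicate could be left out. Unknown depth limits every absence of a call.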

Other observations

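The 3 members on the X chromosome, Ndufa1, Ndufb11 and Cox7b, were called in no list, and 6.21% of all X-linked genes were called in any list, against 21.2% of all genes. With only 3 members, their absence cannot be told apart from either share. Among the 9 members with a promoter entry that BRD2 called and BRD3 did not, the YY1 letters were in Atp5b, Ndufaf8 and Ndufs4. The GABP letters were in Ndufaf1, Ndufaf8 and Ndufs3. Each is 3 of 9 (33.3%, 7.49 to 70.1), beside 3.64% of all promoters for YY1 and 12.9% for GABP. The interval holds the GABP share. In the 250 bases before the start alone, none of the 9 held the YY1 letters, which allows up to 33.6%, and the same 3 held the GABP letters. Over all genes called by BRD2 and by no BRD3 list, 1.31% held the NRF1 letters.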
